A study of Rattus norvegicus and Mus musculus with 34 samples.

Results

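Of 9 genes that mark B cells, plasma cells and T cells, chosen by their gene symbols, 8 were measured among 20022 genes in healing bone tissue of the rat jaw. They were the B cell genes Cd79a, Cd79b, Ms4a1 and Pax5, Mzb1, listed as a plasma cell gene, and the T cell genes Cd3e, Cd3d and Cd8a. The plasma cell gene Jchain was not analysed here. The genes were described in 23 rats, wild type males of the Sprague-Dawley strain aged 6–8 weeks. Every rat had a defect of fixed size cut into the bone around the teeth of the lower jaw, and RNA-seq was made from the tissue filling it after 3, 7 or 14 days. In the sensory nerve+ group the inferior alveolar nerve, the sensory nerve of the lower jaw, was left intact. In the sensory nerve− group a segment of it was cut out in the same operation as the defect. All rats received penicillin after surgery, and the sources used here do not say whether the nerve of sensory nerve+ rats was exposed without being cut. There were 4 rats per group and day, except 3 sensory nerve+ rats at day 3. The labels call the material mixed cells, and no cell type was sorted.

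Lymphocytes are the cells of adaptive immunity. A B cell carries an antibody molecule on its surface, which signals into the cell through the paired chains made from Cd79a and Cd79b. Ms4a1 encodes the surface protein CD20, and Pax5 is the transcription factor that holds a cell to the B cell fate and is shut off when it becomes an antibody-secreting plasma cell. Mzb1 encodes a helper protein for antibody assembly in the endoplasmic reticulum. A T cell recognizes antigen through a receptor whose signalling chains include CD3 epsilon and CD3 delta, from Cd3e and Cd3d, and the coreceptor chain from Cd8a marks cytotoxic T cells. In the rat, CD8 alpha is also known on natural killer (NK) cells and on some macrophages. Lymphocytes enter healing wounds from the blood, and bone marrow holds B cells at all stages of their formation.

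Library totals lay between 14854389 and 18742274 counts per rat. Levels are given as CPM, counts per 1000000 counts of the library after TMM scaling (trimmed mean of M values, which sets libraries of different composition on a common scale). Hemoglobin made up a share of the counts that varied widely, with Hba-a1 alone at 0.130% to 23.4% per rat. The 4 sensory nerve− rats of day 7 came in a table of their own, so a difference between tables cannot be told apart from transection at day 7, or from day 7 in the comparisons among sensory nerve− rats. Each rat was taken as a separate animal from its title, and p-values measure the spread between these samples. Because this is bulk tissue, fewer cells of a type and less RNA per cell cannot be told apart.

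Cd79a, whose product is a signalling chain of the B cell receptor, had its highest levels at day 14. RefSeq gives its start on chromosome 1 of the rat assembly GRCr8, and the 250 bases before it are chr1:89621210-89621459 on the plus strand. The reads were aligned to another assembly, mRatBN7.2, so this position is for reference only. Promoters are shown for the members that RefSeq's table held, 4 of 8, because these genes moved together or apart in the data. They were searched on both strands for the pattern of the B cell factor EBF1, CNC followed by any pair of bases and GGGAA, and for AGGAAG, a core that ETS family factors bind. The search patterns do not overlap in any of the 4 promoters, and a match is printed in capitals.
Cd79a: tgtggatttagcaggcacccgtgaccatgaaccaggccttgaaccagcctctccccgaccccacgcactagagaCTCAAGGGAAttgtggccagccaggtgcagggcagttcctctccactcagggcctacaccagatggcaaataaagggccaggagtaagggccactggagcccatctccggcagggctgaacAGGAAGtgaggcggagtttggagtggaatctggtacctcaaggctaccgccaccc
The first match begins 176 bases and the second 55 bases before the start. Of 33469 rat promoters of the same length, 4.49% held the first pattern and 29.5% the second.

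In sensory nerve+ rats, Cd79a stood at 12.2, 8.31 and 20.8 CPM at day 3, at 1.77, 7.98, 1.33 and 16.1 CPM at day 7, and at 46.3, 234.7, 23.5 and 76.8 CPM at day 14. The sensory nerve− rats stood at 32.7, 8.81, 1.49 and 18.9 CPM at day 3, at 8.76, 22.9, 11.1 and 8.21 CPM at day 7, and at 207.9, 26.8, 135.9 and 38.5 CPM at day 14. Every rat of day 14 in the sensory nerve+ group lay above every rat of days 3 and 7 in that group, and within day 14 the highest rat had 9.99 times the level of the lowest. The sensory nerve− rats of day 14 lay above those of day 7 and overlapped with those of day 3, where 1 rat reached 32.7 CPM.

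**Figure D1:**
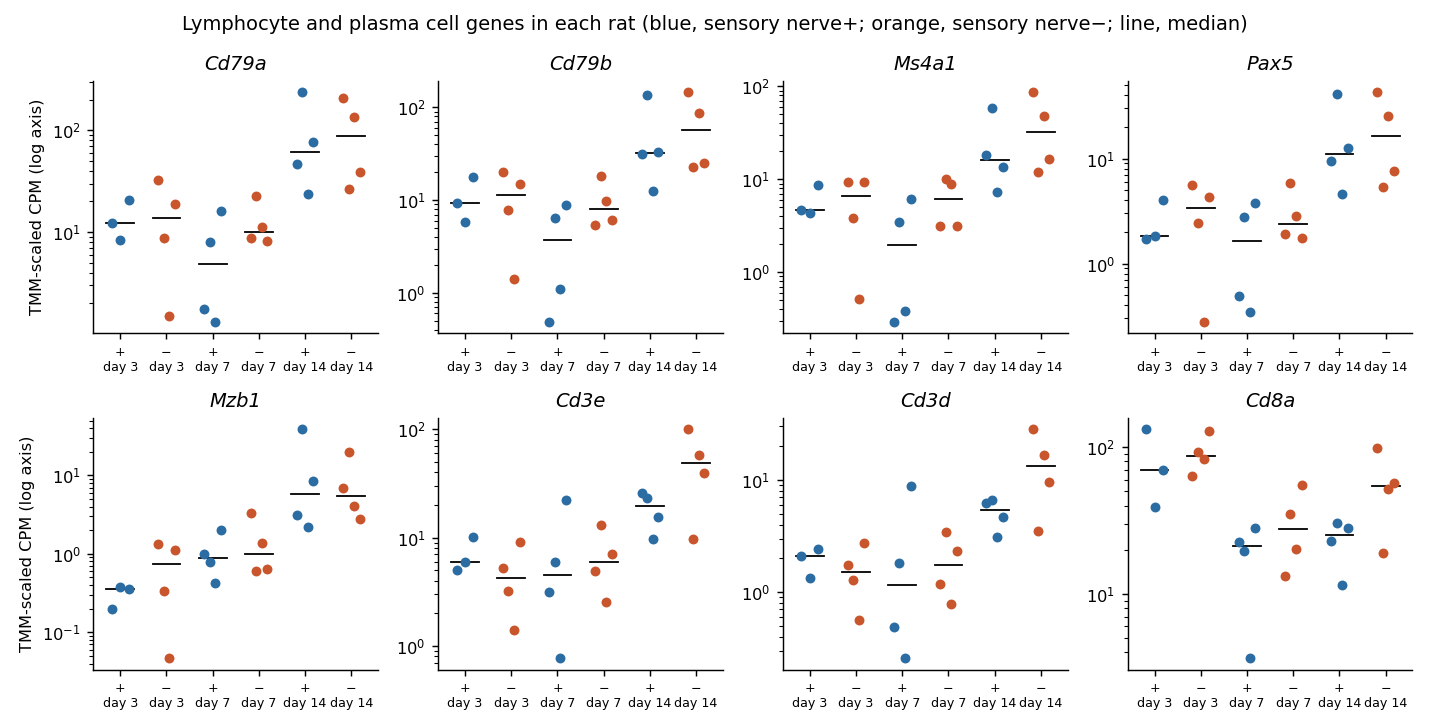
TMM-scaled CPM (log axis) of the 8 measured genes in each of 23 rats, by nerve status (+, sensory nerve+, blue; −, sensory nerve−, orange) and day, with a line at each group's median. The B cell genes, Mzb1, Cd3e and Cd3d had their highest medians at day 14, and Cd8a had its highest at day 3.

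Cd79b, the partner chain of Cd79a, followed the same course. At day 14 it stood at 31.3, 135.9, 12.5 and 32.9 CPM in sensory nerve+ rats and at 144.7, 22.8, 87.4 and 25.3 CPM in sensory nerve− rats. Over both groups it ranged from 1.40 to 20.1 CPM at day 3 (n = 7 rats) and from 0.491 to 18.2 CPM at day 7 (n = 8). Its day 14 values therefore overlapped with the higher rats of the earlier days when both groups were pooled.

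Ms4a1 stood at 18.4, 59.1, 7.24 and 13.5 CPM at day 14 in sensory nerve+ rats, against 4.66, 4.30 and 8.76 CPM at day 3 and 0.294, 3.49, 0.385 and 6.16 CPM at day 7. The sensory nerve− rats stood at 85.8, 12.1, 47.6 and 16.5 CPM at day 14, against 9.39, 3.86, 0.513 and 9.42 CPM at day 3 and 3.14, 10.0, 8.99 and 3.14 CPM at day 7. All 4 sensory nerve− rats of day 14 lay above the other 8 of their group.

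Pax5, the transcription factor of the B cell fate, was lower in counts and ranked the rats in nearly the same way. It reached 9.52, 41.5, 4.60 and 12.5 CPM at day 14 in sensory nerve+ rats and 42.6, 5.41, 25.3 and 7.60 CPM in sensory nerve− rats. At days 3 and 7 it lay between 0.280 and 5.82 CPM in 15 rats. The lowest values of the 4 B cell genes at day 3 came from a single sensory nerve− rat, replicate 3, and at day 7 from the sensory nerve+ replicates 1 and 3.

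Across the 23 rats, the log2 levels of the 4 B cell genes correlated with each other at Pearson r between 0.973 and 0.990. Taken as deviations from each group's mean, so that day and transection no longer enter, r lay between 0.963 and 0.986. These rats share tissue composition and scaling, and the values are descriptions. The non-member genes with the most similar pattern to the mean of the 4, among 14325 genes with a mean of at least 1 CPM, included Pou2af1 (r = 0.978), Fcrla (0.972), Ikzf3 (0.969) and Cr2 (0.968). Cr2 is a complement receptor of B cells.

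The change between days was tested in each group with edgeR's quasi-likelihood test on counts, with Benjamini-Hochberg adjustment over all genes tested, and an adjusted p under 0.05 counted as called. At day 14 against day 3 in sensory nerve+ rats, 0 of 8 genes were called, where 5.78% of all genes were called, although 8 of 8 had an unadjusted p under 0.05 and DESeq2, another count test, called 8 of 8 against 20.7% of all genes. Cd79a had a log2 fold change of 2.82 (SE 0.841, edgeR adjusted p = 0.0861, DESeq2 adjusted p = 0.00255), and Pax5 one of 2.78 (SE 0.827, edgeR adjusted p = 0.0853). The log2 fold change of Cd79b was 2.31 (SE 0.862) and that of Ms4a1 2.08 (SE 0.753), and their groups overlapped. For 5 of the 8 genes the rats of day 14 and day 3 did not overlap, against 24.6% of all genes tested. With all 23 rats in 1 edgeR fit, 2 of 8 genes were called at day 14 against day 3, Mzb1 and Cd8a, against 16.4% of all genes. In linear terms the fitted level of the 4 B cell genes was 4.23-fold to 7.07-fold higher at day 14, with a call that depended on the test. Without replicate 2 of day 14 the log2 fold changes fell to 1.88 for Cd79a, 1.28 for Cd79b, 1.19 for Ms4a1 and 1.87 for Pax5, and edgeR called none of the 4 (adjusted p = 0.0513 to 0.135).

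From day 7 to day 14 in sensory nerve+ rats, 0 of 8 genes were called by edgeR, against 0.0202% of all genes. Before adjustment 5 had a p under 0.05, and DESeq2 called the same 5, against 2.05% of all genes. They were the 4 B cell genes and Mzb1, whose rats did not overlap between the days, against 5.73% of all genes tested. Cd79a had the largest log2 fold change of the 8, at 3.86 (SE 1.03, edgeR adjusted p = 0.384, DESeq2 adjusted p = 0.00217), and the other 3 B cell genes lay between 3.26 and 3.71. Without replicate 2 of day 14, Cd79a, Cd79b, Ms4a1 and Pax5 had 2.91, 2.65, 2.39 and 2.32, and Mzb1 2.18 in place of 3.69.

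In sensory nerve− rats at day 14 against day 3, edgeR called 3 of 8 genes, all of them higher at day 14, where 8.89% of all genes were called higher. The 3 were Cd3d, Cd3e and Mzb1. The 4 B cell genes missed the threshold. Their log2 fold changes were 2.73 for Cd79a (SE 0.961, edgeR adjusted p = 0.0732), 2.66 for Cd79b (SE 0.873, edgeR adjusted p = 0.0600), 2.81 for Ms4a1 (SE 0.919, edgeR adjusted p = 0.0594) and 2.68 for Pax5 (SE 0.928, edgeR adjusted p = 0.0702). DESeq2 called 7 of 8, against 30.3% of all genes, and the edgeR fit of all 23 rats called the same 7, against 26.7%. The gene left out by both was Cd8a. The rats of the compared days did not overlap for 5 of the 8 genes, against 26.7% of all genes tested.

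The edgeR calls at day 14 against day 3 in sensory nerve− rats depended on single rats. Without replicate 2 of day 14, which had the lowest Cd79a of its group, 6 of the 8 genes were called, among them the 4 B cell genes, and Mzb1 was not. Without replicate 1 or without replicate 2 of day 3, 0 were called, and without any other rat 2 or 3 were called. From day 7 to day 14 in sensory nerve− rats, 0 of 8 genes were called by edgeR, against 0.0138% of all genes. All but Cd8a, 7 of the 8, had an unadjusted p under 0.05 and were called by DESeq2, against 12.7% of all genes. Without replicate 2 of day 14, edgeR called 6, all but Mzb1 and Cd8a. For 4 of the 8 genes the rats of these days did not overlap, against 12.3% of all genes tested.

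**Figure D2:**
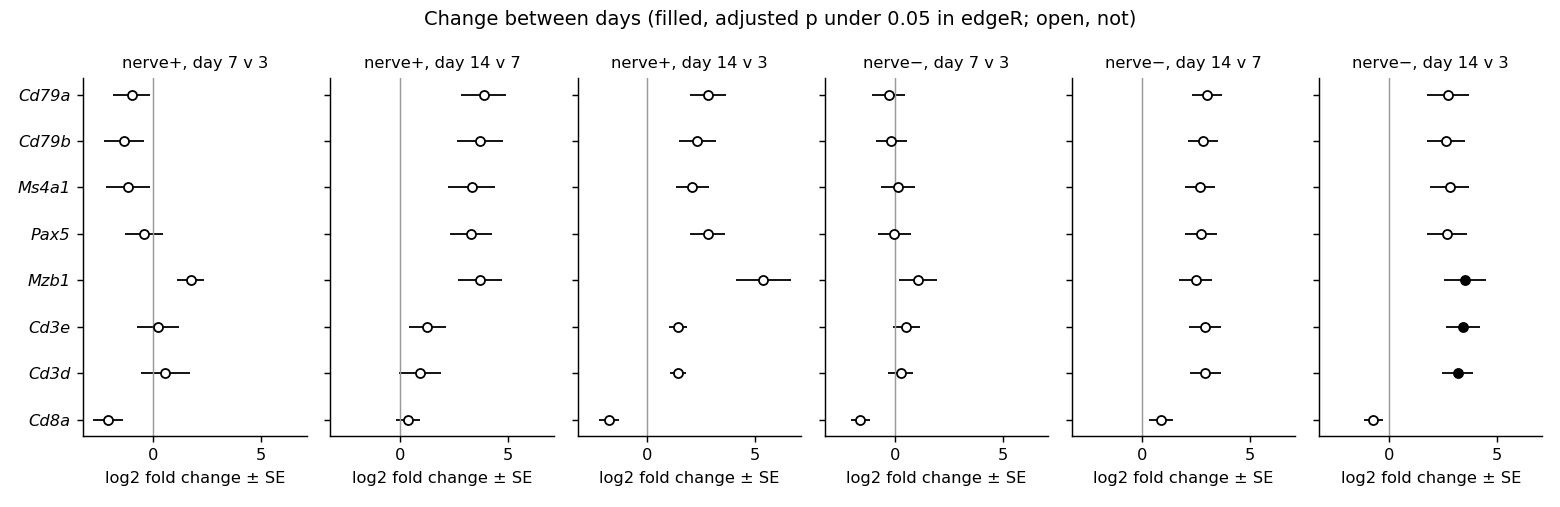
Log2 fold change of each gene between days in sensory nerve+ and sensory nerve− rats, with bars of 1 SE, from edgeR. Filled points had an adjusted p under 0.05 and are Mzb1, Cd3e and Cd3d at day 14 against day 3 in sensory nerve− rats, while Cd8a lay below 0 at days 7 and 14 against day 3 in both groups.

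Genes of other B cell steps gave the context of these changes. Of 23 further B cell genes, 2 were called higher and 0 lower at day 14 against day 3 in sensory nerve+ rats, with a median log2 fold change of 1.41 against 0.00 for all genes tested, of which 2.69% were called higher and 3.09% lower. With 1 rat left out, 0 to 3 of the 23 were called higher, and the median was 0.85 without replicate 2 of day 14. The 2 were Cxcr5 (1.87, SE 0.327, edgeR adjusted p = 0.0373), the receptor that leads B cells into follicles, and Ebf1 (1.58, SE 0.320, edgeR adjusted p = 0.0424), a transcription factor of early B cells that acts before Pax5. Of the 23, 6 in sensory nerve− rats were called higher and 0 lower, with a median of 2.07 against −0.05 for all genes, of which 14.6% were called lower beside the 8.89% higher. With 1 rat left out, 0 to 10 were called higher. The smallest p belonged to Cxcr5 (3.11, SE 0.694), Blk (2.40, SE 0.569) and Cd22 (2.07, SE 0.556). Of 17 genes of B cell receptor signalling, 0 were called in sensory nerve+ rats and 5 were called higher in sensory nerve− rats, with medians of 0.27 and 0.38. Prkcb, a kinase that carries the signal from the receptor to NF-kappaB, was called there with a log2 fold change of 1.96 (SE 0.439).

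Genes of B cell formation were high in a few rats of day 14. Rag1, which cuts DNA to assemble antibody and T cell receptor genes, stood at 0.547, 42.4, 3.27 and 27.8 CPM in sensory nerve+ rats and at 9.35, 0.619, 4.71 and 1.01 CPM in sensory nerve− rats. Igll1, a chain of the receptor that only B cell precursors carry, stood at 0.164, 20.4, 1.44 and 12.4 CPM and at 10.8, 0.225, 1.20 and 0.275 CPM. The sensory nerve+ replicates 2 and 4 and the sensory nerve− replicate 1 were highest for both. At days 3 and 7, Rag1 was at most 1.01 CPM in 14 of 15 rats and 4.43 CPM in the sensory nerve− replicate 1 of day 3, the rat with the highest Cd79a of its day.

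Per count of Cd79a, Rag1 gave up to 0.362 counts at day 14, in the sensory nerve+ replicate 4, and 0.0118 in the lowest rat. The sensory nerve− replicate 3 of day 14 had 135.9 CPM of Cd79a with a Rag1 of 4.71 CPM, and the sensory nerve+ replicate 4 had 76.8 CPM with 27.8 CPM, so the B cell genes and the precursor genes did not rank these rats alike. Of 10 precursor genes, 9 were tested in sensory nerve+ rats at day 14 against day 3. Of these 0 were called, against 5.78% of all genes, and Rag1 and Igll1 had an adjusted p of 0.0506 and 0.0602 from edgeR. No fold is given for them, because their levels in the 3 rats of day 3 were at most 0.0657 and 0.0515 CPM, a single count. Among sensory nerve− rats 6 of the 10 were tested and 3 were called higher, where 8.89% of all genes were called higher. The 3 were Il7r, Vpreb3 and Lef1, with log2 fold changes of 2.40, 2.55 and 1.82. Whether B cell precursors or other cells carried these 3 genes was not tested. Neutrophil genes, which bone marrow also holds, had a summed level of 8860 CPM in the sensory nerve+ replicate 2 of day 14 and 119.8 to 1967.5 CPM in the other 3. How far these genes or cells of the marrow entered the B cell values was not tested.

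**Figure D3:**
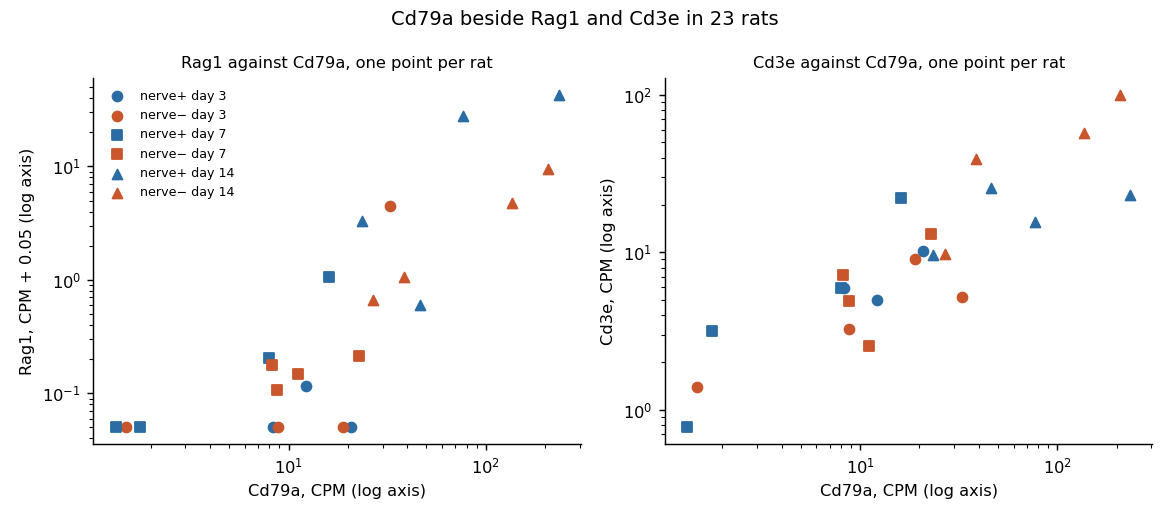
Levels in each of 23 rats of Cd79a (horizontal) against Rag1 (left, CPM + 0.05) and Cd3e (right), all on log axes, with blue for sensory nerve+, orange for sensory nerve− and a symbol per day. Rats of similar Cd79a at day 14 differed widely in Rag1, while Cd3e and Cd79a correlated at r = 0.874 across the rats.

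Mzb1 was near the limit of detection at day 3. It had 3, 8 and 7 counts in sensory nerve+ rats and 23, 7, 1 and 21 counts in sensory nerve− rats. In CPM this was 0.197, 0.382 and 0.361, and 1.34, 0.333, 0.0466 and 1.13. At day 7 it stood at 0.982, 0.782, 0.428 and 2.03 CPM in sensory nerve+ rats and at 3.31, 0.598, 1.37 and 0.642 CPM in sensory nerve− rats. At day 14 it stood at 3.17, 38.8, 2.18 and 8.42 CPM and at 6.83, 19.6, 4.05 and 2.75 CPM. The 3 days of sensory nerve+ rats did not overlap with each other, and the highest rat of day 14 had 4.61 times the level of the next.

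Mzb1 was called in sensory nerve− rats at day 14 against day 3 with a log2 fold change of 3.53 (SE 0.961, edgeR adjusted p = 0.0331). For sensory nerve+ rats the log2 fold change was 5.36 (SE 1.28, edgeR adjusted p = 0.0547, DESeq2 adjusted p = 5e-06), and without replicate 2 of day 14 edgeR called it. At day 7 against day 3 it had a log2 fold change of 1.74 in sensory nerve+ rats (SE 0.621, edgeR adjusted p = 0.142).

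Mzb1 did not follow the B cell genes rat by rat. Its correlation with them across the 23 rats lay between 0.684 and 0.750, and between 0.421 and 0.473 as deviations from the group means. The sensory nerve− replicate 2 of day 14 had the highest Mzb1 of its group, 19.6 CPM, with the lowest Cd79a, 26.8 CPM. Per count of Cd79a, Mzb1 gave 0.731 counts there and 0.0298 in the replicate 3 beside it. The genes with the most similar pattern were Cma1 (r = 0.938), Cpa3 (0.932), Mcpt1l1 (0.925), Tpsb2 (0.922) and RGD1565617 (0.912). Cma1, Tpsb2 and Cpa3 encode chymase, a tryptase and a carboxypeptidase, which are stored in the granules of mast cells.

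Cpa3 stood at 4.65, 136.9, 5.63 and 22.4 CPM in sensory nerve+ rats of day 14 and at 13.7, 33.8, 4.93 and 2.56 CPM in sensory nerve− rats. The sensory nerve+ replicate 2 and the sensory nerve− replicate 2, the highest of their groups for Cpa3, were also the highest for Mzb1. Mast cell genes were not on a list fixed for these tests, and their part in the Mzb1 values was not tested. Tnfrsf17, the plasma cell receptor for the survival factor APRIL, reached 2.44 CPM in the sensory nerve+ replicate 2 and at most 0.957 CPM in the other rats of day 14.

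The genes of plasma cells and secretion did not move with Mzb1 as a group. Of 18, 16 were tested at day 14 against day 3. In sensory nerve+ rats 0 were called higher and 4 lower, with a median log2 fold change of −0.33. There 2.69% of all genes were called higher and 3.09% lower. The sensory nerve− rats had 2 called higher and 3 lower, with a median of −0.12, where 8.89% of all genes were called higher and 14.6% lower, and with 1 rat left out 1 to 3 were called higher and 1 to 6 lower. Hsp90b1 and Txndc5, chaperones of the endoplasmic reticulum in many cell types, were called lower in both groups, with log2 fold changes of −1.22 (SE 0.249) and −0.97 (SE 0.155) in sensory nerve+ rats and −1.26 (SE 0.178) and −1.08 (SE 0.248) in sensory nerve− rats. Fcrl5, a receptor of B cells and plasma cells, was called higher in sensory nerve− rats (2.63, SE 0.505, edgeR adjusted p = 0.0111). Immunoglobulin chain genes were not analysed here, so the label of a plasma cell gene could not be checked against antibody transcripts.

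Cd3e and Cd3d, the signalling chains of the T cell receptor, are neighbours on chromosome 8 and moved together. RefSeq gives the 250 bases before their starts on GRCr8 as chr8:54211771-54212020 on the minus strand for Cd3e and chr8:54185269-54185518 on the plus strand for Cd3d. Each is shown on its own strand, and the capitals are the AGGAAG pattern read on the other strand.
Cd3e: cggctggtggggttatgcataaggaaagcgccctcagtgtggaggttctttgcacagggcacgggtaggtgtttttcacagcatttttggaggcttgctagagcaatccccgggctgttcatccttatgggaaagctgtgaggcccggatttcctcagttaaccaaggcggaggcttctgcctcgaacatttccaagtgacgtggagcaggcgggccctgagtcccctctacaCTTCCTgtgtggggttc
Cd3d: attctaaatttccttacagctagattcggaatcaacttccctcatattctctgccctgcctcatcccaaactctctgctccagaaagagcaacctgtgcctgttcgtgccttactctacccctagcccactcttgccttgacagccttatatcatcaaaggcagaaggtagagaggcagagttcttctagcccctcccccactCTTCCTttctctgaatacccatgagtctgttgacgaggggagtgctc
The match begins 17 bases before the start of Cd3e and 47 bases before that of Cd3d, and 29.5% of all rat promoters of this length hold the pattern.

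Cd3e stood at 4.99, 5.92 and 10.2 CPM at day 3, at 3.14, 5.89, 0.770 and 22.3 CPM at day 7, and at 25.7, 23.2, 9.65 and 15.5 CPM at day 14 in sensory nerve+ rats. The sensory nerve− rats stood at 5.19, 3.24, 1.40 and 9.04 CPM at day 3, at 4.88, 13.0, 2.54 and 7.12 CPM at day 7, and at 99.8, 9.74, 57.3 and 39.1 CPM at day 14. The day 14 values of sensory nerve− rats spread 10.2-fold and lay above all their rats of day 3, while replicate 2 lay below the highest rat of day 7. Among sensory nerve+ rats, replicate 4 of day 7 and replicate 3 of day 3 lay above the lowest rat of day 14.

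Cd3d stood at 6.24, 6.68, 3.10 and 4.64 CPM at day 14 in sensory nerve+ rats and at 28.4, 3.49, 16.9 and 9.52 CPM in sensory nerve− rats. At day 3 it lay between 0.560 and 2.74 CPM in 7 rats, below every rat of day 14, and at day 7 between 0.257 and 8.78 CPM in 8. The counts of Cd3d per count of Cd3e had medians of 0.337, 0.309 and 0.291 at days 3, 7 and 14, and the ranges of the days overlapped. The correlation of both genes was 0.981 across the 23 rats and 0.963 as deviations from the group means.

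At day 14 against day 3 in sensory nerve− rats, Cd3e had a log2 fold change of 3.44 (SE 0.786, edgeR adjusted p = 0.0192) and Cd3d one of 3.19 (SE 0.717, edgeR adjusted p = 0.0183). Both were called under scaling by library totals too, with log2 fold changes of 2.94 and 2.69. The log2 fold changes in sensory nerve+ rats were 1.42 (SE 0.417, edgeR adjusted p = 0.0834) and 1.43 (SE 0.381, edgeR adjusted p = 0.0677), and DESeq2 called both. Whether the rise differed between the nerve groups was tested as an interaction, and it was not called for either gene (log2 difference 2.06, SE 1.15, and 1.80, SE 1.18, adjusted p = 0.757 and 0.779 from edgeR). Between day 14 and day 7 the log2 fold changes in sensory nerve− rats were 2.93 (SE 0.733) and 2.94 (SE 0.707), with adjusted p of 0.105 and 0.104 from edgeR and calls by DESeq2.

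Most further genes of T cells rose in the same comparison, where 8.89% of all genes were called higher in sensory nerve− rats. Of 30, 29 were tested in sensory nerve− rats at day 14 against day 3, and 24 were called higher and 0 lower, with a median log2 fold change of 2.89 against −0.05 for all genes tested. With 1 rat left out the number called higher ran from 12, without replicate 2 of day 3, to 27, without replicate 2 of day 14. Cd2, an adhesion receptor of T and NK cells, had a log2 fold change of 2.16 (SE 0.408, edgeR adjusted p = 0.0106), Foxp3, the transcription factor of regulatory T cells, one of 2.70 (SE 0.519), and Lat, an adaptor of T cell receptor signalling, one of 2.48 (SE 0.489). Only Cd28, 1 of 30, was called higher in sensory nerve+ rats, against 2.69% of all genes, and 0 were called lower, with a median of 1.13. With 1 rat left out, 0 to 3 were called higher there. Of 17 genes of T cell receptor signalling, 11 were called higher in sensory nerve− rats and 1, again Cd28, in sensory nerve+ rats, with medians of 1.52 and 0.79, and 0 were called lower in either group. Lck, the kinase bound to the coreceptors, had a log2 fold change of 2.89 (SE 0.614) in sensory nerve− rats.

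The genes whose pattern was most like that of Cd3e and Cd3d were Skap1 (r = 0.992), Lck (0.989), Cd3g (0.988), Cd5 (0.987) and Cd247 (0.985). This pair was taken without Cd8a after the values had been seen. With Cd8a included, the most similar genes were Ccr7 (r = 0.950), Treml2 (0.947), Cd38 (0.947), Cd247 (0.946) and Dennd2d (0.942). Ccr7 leads T cells into lymph nodes. The T and B cell members also correlated with each other, Cd79a and Cd3e at 0.874 across the rats and at 0.797 as deviations from the group means.

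Cd8a had its highest levels at day 3. It stood at 132.9, 38.9 and 70.1 CPM at day 3 in sensory nerve+ rats and at 63.8, 92.7, 82.7 and 129.9 CPM in sensory nerve− rats. At day 7 it stood at 22.6, 19.7, 3.64 and 28.0 CPM and at 13.3, 35.0, 20.2 and 55.2 CPM. At day 14 it stood at 22.8, 30.4, 11.4 and 28.0 CPM and at 98.9, 19.1, 51.9 and 57.3 CPM. The rats of day 3 lay above all rats of day 7 within each nerve group, and above those of day 14 in sensory nerve+ rats, while in sensory nerve− rats days 3 and 14 overlapped.

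Cd8a in sensory nerve+ rats had a log2 fold change of −2.09 at day 7 against day 3 (SE 0.673, edgeR adjusted p = 0.112, DESeq2 adjusted p = 0.0157) and of −1.77 at day 14 against day 3 (SE 0.467, edgeR adjusted p = 0.0662, DESeq2 adjusted p = 0.00593). The sensory nerve− values were −1.59 (SE 0.435, edgeR adjusted p = 0.0550, DESeq2 adjusted p = 0.00502) and −0.72 (SE 0.451, edgeR adjusted p = 0.268). The difference of the last pair between the nerve groups was not called as an interaction (log2 difference 1.11, SE 0.822, edgeR adjusted p = 0.798). At day 7 against day 3, edgeR called 0 of 8 genes in sensory nerve+ rats, against 6.67% of all genes, and 0 of 8 in sensory nerve− rats, against 10.5% of all genes. Before adjustment, 2 genes had a p under 0.05 in sensory nerve+ rats, Cd8a and Mzb1, and 1 in sensory nerve− rats, Cd8a. DESeq2 called Cd8a alone in each group, against 16.7% and 19.8% of all genes. Those 2 genes and that 1 were also the members without overlap between the days, against 25.5% and 21.6% of all genes tested.

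The promoter of Cd8a that RefSeq gives, the 250 bases of chr4:104923866-104924115 on the plus strand of GRCr8, held neither of the 2 patterns. It is shown because Cd8a departed from the CD3 genes.
Cd8a: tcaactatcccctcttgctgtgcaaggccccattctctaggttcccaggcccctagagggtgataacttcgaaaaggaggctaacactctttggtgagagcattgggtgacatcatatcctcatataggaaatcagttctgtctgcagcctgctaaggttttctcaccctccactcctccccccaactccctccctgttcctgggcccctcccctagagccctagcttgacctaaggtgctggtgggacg
No match says only that these letters are not in this window.

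The ratio of Cd8a to Cd3e counts within a rat separated day 3 from day 14. It was 26.6, 6.56 and 6.91 in sensory nerve+ rats and 12.3, 28.6, 59.1 and 14.4 in sensory nerve− rats at day 3. At day 7 it was 7.18, 3.35, 4.72 and 1.26 and then 2.71, 2.69, 7.96 and 7.75, and at day 14 it was 0.887, 1.31, 1.18 and 1.80 and then 0.990, 1.96, 0.906 and 1.47. All 8 rats of day 14 lay below all 7 of day 3. Days 3 and 7 overlapped, as did days 7 and 14. The ratio is a description of these rats, because the levels of both genes had been seen before it was formed.

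Cd8b, the partner chain of Cd8a on cytotoxic T cells, gave ratios to Cd3e of 1.01 to 7.27 at day 3, 0.371 to 4.52 at day 7 and 0.245 to 0.470 at day 14. In CPM, Cd8b ranged from 6.54 to 17.8 at day 3, from 1.80 to 23.1 at day 7 and from 4.45 to 27.2 at day 14, so its level overlapped between all days. Cd8a correlated with the other 7 members between −0.202 and 0.303 across the 23 rats. As deviations from the group means, its r with Cd3e was 0.710, taken over the rats of all 6 groups at once. Single groups could depart from it. Among sensory nerve+ rats of day 3, replicate 1 had the highest Cd8a, 132.9 CPM, with the lowest Cd3e, 4.99 CPM.

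**Figure D4:**
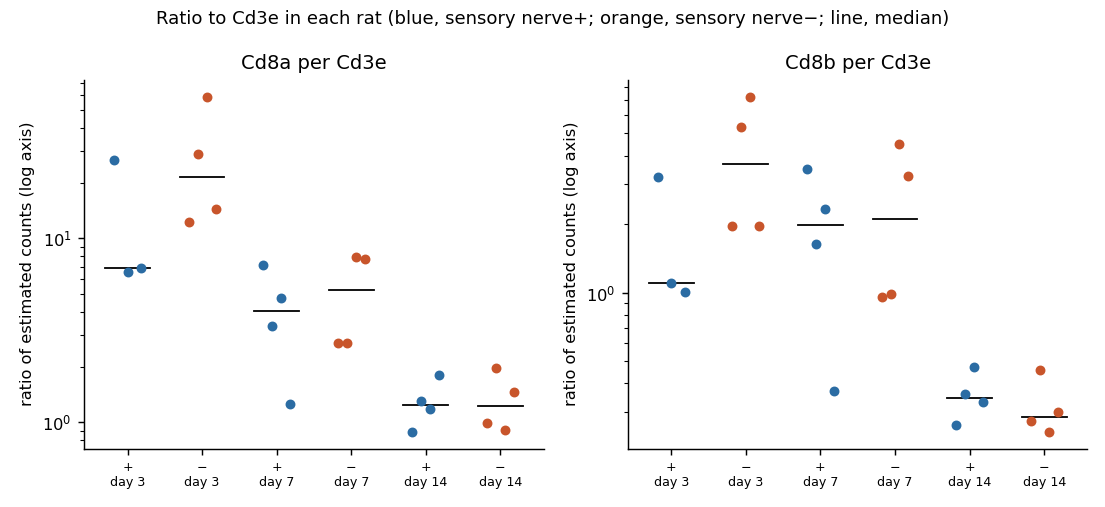
Counts of Cd8a (left) and Cd8b (right) per count of Cd3e in each rat, on log axes, by nerve status (+, sensory nerve+, blue; −, sensory nerve−, orange) and day, with a line at the group median. Cd8a per Cd3e lay between 6.56 and 59.1 at day 3 and between 0.887 and 1.96 at day 14.

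The genes with the pattern most like Cd8a alone, a choice made after its values had been seen, were Tpm3 (r = 0.910), Uggt1 (0.899), Parvg (0.888), Arpc2 (0.883) and Ms4a6c (0.877), and 0 of the 5 were on the T cell or NK cell lists. The macrophage genes, which mark cells that can carry CD8 alpha in the rat, had summed levels of 1363.5 to 3196.5 CPM at day 3, 662 to 3251 CPM at day 7 and 631 to 1935.5 CPM at day 14. Of the 13 tested at day 14 against day 3, 0 were called higher and 4 lower in sensory nerve+ rats, and 1 higher and 5 lower in sensory nerve− rats, against 3.09% and 14.6% of all genes called lower. The scavenger receptor Msr1 led both, at −4.59 (SE 0.417) and −4.06 (SE 0.374). At day 7 against day 3, where Cd8a also fell, the macrophage genes of sensory nerve− rats had 3 called higher and 0 lower. Their median log2 fold change was 0.20, and 3.68% of all genes were called higher. The sensory nerve+ rats had 0 called higher and 1 lower, with a median of −0.56, where 1.79% of all genes were called lower. The genes of cytotoxic and NK cells rose in the same comparison as the CD3 genes. Of 16 tested in sensory nerve− rats, 14 were called higher and 0 lower, with a median log2 fold change of 3.60, led by the protease Ctsw (3.05, SE 0.476), the interleukin 2 and 15 receptor chain Il2rb (3.98, SE 0.712) and the chemokine Ccl5 (3.74, SE 0.743). With 1 rat left out, 9 to 17 were called higher, and with all rats 8.89% of all genes were called higher. Of 18 in sensory nerve+ rats 0 were called, with a median of 1.95, where 2.69% of all genes were called higher and 3.09% lower. Which cells carried Cd8a was not tested.

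Transection was compared within each day, as sensory nerve− over sensory nerve+. For the members this comparison gave no call by either count test. At day 3, edgeR called 0 of the 7 genes it could test, against 0.0% of all genes, with 0 at an unadjusted p under 0.05, and DESeq2 called 0 of 8, against 0.0% of all genes. Mzb1 had too few counts for the edgeR test at that day. The log2 fold changes lay between −0.60 for Cd3e (SE 0.595) and 0.30 for Pax5 (SE 0.849). The nerve groups overlapped for 8 of 8 members, that is 0 were apart, against 1.61% of all genes.

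At day 7, edgeR called 0 of 8, against 0.0% of all genes, with 0 at an unadjusted p under 0.05, and DESeq2 called 0 of 8, against 0.00529% of all genes. The 4 B cell genes had log2 fold changes of 0.75 to 1.31 with SEs of 0.768 to 0.938, and the 2 CD3 genes had −0.22 for Cd3e (SE 0.902) and −0.55 for Cd3d (SE 1.02). Without the sensory nerve+ replicate 4 these became 1.10 and 1.19, and with the replicate number as a block 0.47 and 0.41, so neither had a direction that held. The B cell genes Cd79a, Cd79b, Ms4a1 and Pax5 had 1.82, 1.93, 2.23 and 1.39 without that rat. The sensory nerve+ replicates 1 and 3, with 1.77 and 1.33 CPM of Cd79a, were the lowest rats, and all 4 sensory nerve− rats lay between 8.21 and 22.9 CPM. The groups overlapped for each member, so 0 were apart, against 0.775% of all genes.

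At day 14, no member passed the test, and which members differed most between the nerve groups depended on single rats. EdgeR called 0 of 8, against 0.0% of all genes, and DESeq2 called 0 of 8, against 0.675% of all genes. Before adjustment 3 had a p under 0.05, Cd8a, Cd3d and Cd3e, where 9.32% of all genes had one. Cd8a had a log2 fold change of 1.29 (SE 0.486), Cd3d of 1.49 (SE 0.583) and Cd3e of 1.47 (SE 0.626), each with an adjusted p of 0.519 from edgeR. In CPM, Cd3e averaged 51.5 ± 37.7 (SD, n = 4) in sensory nerve− rats and 18.5 ± 7.34 (SD, n = 4) in sensory nerve+ rats. On this TMM scale Cd3e lay above all sensory nerve+ rats in 3 of the 4 sensory nerve− rats. Replicate 2 lay at 9.74 CPM beside the lowest sensory nerve+ rat. Before scaling, the sensory nerve− rats had 1228, 173, 523 and 427 counts of Cd3e. The sensory nerve+ rats had 470, 466, 168 and 271 counts. Relative to library totals alone, only the sensory nerve− replicate 1 lay above all sensory nerve+ rats, so the separation depended on the scaling.

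The 4 B cell genes at day 14 had log2 fold changes of 0.11 for Cd79a (SE 0.843), 0.41 for Cd79b (SE 0.835), 0.73 for Ms4a1 (SE 0.793) and 0.25 for Pax5 (SE 0.824). Scaled by library totals alone, those of Cd79a, Cd79b and Pax5 lay below 0, at −0.59, −0.28 and −0.43, so these genes had no direction that held under both scalings. Without the sensory nerve− replicate 1 they were −0.48, −0.20 and −0.39, and without the sensory nerve+ replicate 2 they were 1.03, 1.42 and 1.15, with Ms4a1 at 0.08 and 1.60. For Cd3e, Cd3d and Cd8a scaling by library totals gave 0.85, 0.88 and 0.72, where the median of all genes lay at −0.41 in place of 0.03. Without the sensory nerve− replicate 1 and without the sensory nerve+ replicate 2, Cd3e had 0.94 and 1.56, Cd3d 0.96 and 1.60, and Cd8a 0.89 and 1.41. Mzb1 had −0.64 (SE 0.982), and 0.78 without the sensory nerve+ replicate 2. The nerve groups overlapped for every member, so 0 were apart, against 3.35% of all genes tested.

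**Figure D5:**
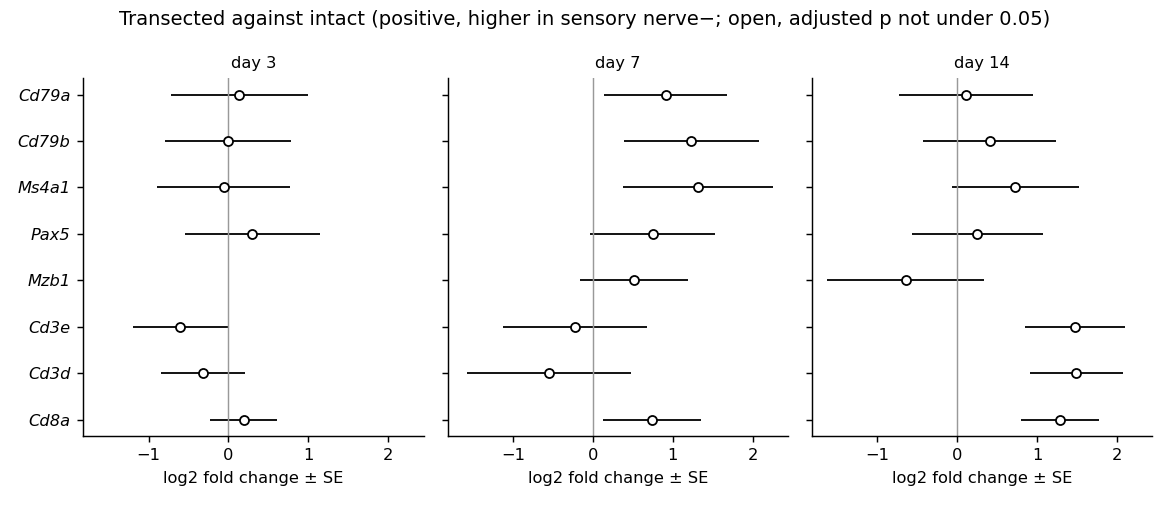
Log2 fold change of each gene, sensory nerve− over sensory nerve+, at days 3, 7 and 14, with bars of 1 SE, from edgeR. At day 14 Cd3e, Cd3d and Cd8a lay between 1.29 and 1.49, and all points are open because 0 genes had an adjusted p under 0.05. Mzb1 was not tested at day 3.

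Other lymphocyte genes were compared at day 14 as well. Of 30 T cell genes, 29 had a log2 fold change above 0, with a median of 1.37 against 0.03 for all genes tested, and of 18 cytotoxic and NK cell genes 17 did, with a median of 1.39. Of 23 B cell genes 17 did, with a median of 0.36, and of 9 precursor genes 2 did, with a median of −1.13. EdgeR called 0 genes of these lists. Without the sensory nerve+ replicate 2 the medians were 1.55 for T cell genes, 1.65 for cytotoxic and NK cell genes, 0.95 for B cell genes and −0.36 for precursor genes, and without the sensory nerve− replicate 1 they were 0.85, 0.91, 0.01 and −1.73. Lat (1.33, SE 0.371), Cd2 (1.53, SE 0.464) and Icos (1.19, SE 0.403), an activation receptor of T cells, had the smallest p of the T cell list, each with an adjusted p of 0.519 from edgeR.

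Other tissues differed between the same rats of day 14. Hba-a1 took 3.15%, 0.676%, 8.52% and 9.46% of the counts in sensory nerve+ rats and 12.9%, 0.130%, 23.4% and 15.3% in sensory nerve− rats. The summed level of 20 skeletal muscle genes ranged from 433 to 45906 CPM in sensory nerve+ rats and from 367 to 12397 CPM in sensory nerve− rats, and all 20 had a log2 fold change below 0, with a median of −2.69. The 10 genes of all leukocytes lay between 1044 and 4764 CPM and between 1694 and 4901 CPM, with 10 of 10 log2 fold changes above 0 and a median of 0.64. The part of tissue composition in the values of the T cell genes was not tested.

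Taken over the 3 days in 1 fit with day as a term, edgeR called 0 of 8 members, against 0.0% of all genes, and DESeq2 0 of 8, against 0.00505% of all genes. Cd8a alone had an unadjusted p under 0.05, with a log2 fold change of 0.77 (SE 0.335, edgeR adjusted p = 0.860), and the other 7 lay between 0.21 and 0.69. The interaction of transection and day was not called for any member by either test. EdgeR called 0 of 8 for day 7 against day 3, for day 14 against day 7 and for day 14 against day 3, against 0.0% of all genes each, with 0 at an unadjusted p under 0.05 in each. DESeq2 called 0 of 8 in each, against 0.0352%, 0.0101% and 0.167% of all genes. For day 14 against day 7 the interaction of Cd79a, Cd79b, Ms4a1, Pax5 and Mzb1 changed from −0.82, −0.84, −0.60, −0.51 and −1.17 to 0.15, 0.21, 0.32, 0.44 and 0.35 without the sensory nerve+ replicate 2 of day 14. The largest interaction values were those of the CD3 genes. Cd3e had a log2 difference of 2.06 (SE 1.15) at day 14 against day 3, and Cd3d one of 2.04 (SE 1.14) at day 14 against day 7.

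Signals for lymphocyte entry and survival were compared between days as well. Of 16 tested genes in sensory nerve− rats at day 14 against day 3, 9 were called higher and 0 lower, with a median log2 fold change of 2.06, among them Il15 (1.65, SE 0.237), a growth factor of NK cells and memory T cells, and Ltb (3.01, SE 0.580), a cytokine that organizes lymphoid tissue. Of 18 in sensory nerve+ rats 2 were called higher and 0 lower, Il15 (1.45, SE 0.250) and Cxcr5, with a median of 1.32. Of 8 tested genes of germinal centres and lymph nodes, 3 were called higher and 2 lower in sensory nerve− rats, and 0 in sensory nerve+ rats. Cxcl13, the chemokine that attracts B cells through Cxcr5, and Ccl21, which attracts T cells, showed sensory nerve− log2 fold changes of 3.89 (SE 1.02) and 4.35 (SE 1.09). Among sensory nerve− rats of day 14, replicate 2 had the highest Cxcl13, 66.4 CPM, with the lowest Cd79a, 26.8 CPM. Replicate 1 had the lowest Cxcl13, 3.25 CPM, with the highest Cd79a, 207.9 CPM. Of the sensory nerve+ rats of day 14, replicate 2 had the lowest Cxcl13, 2.79 CPM, with the highest Cd79a, 234.7 CPM. Replicate 4 had the highest Cxcl13, 36.4 CPM, with 76.8 CPM of Cd79a. Whether Cxcl13 followed the B cell genes was not tested. Glycam1, a gene of lymph node vessels, stood at most at 0.0547 CPM in all 23 rats. Of 8 tested genes of plasmacytoid dendritic cells, 4 were called higher in sensory nerve− rats and 0 in sensory nerve+ rats. Beside these counts, 8.89% of all genes were called higher and 14.6% lower in sensory nerve− rats. In sensory nerve+ rats the shares were 2.69% and 3.09%. The lists of this paragraph were not refitted with single rats left out.

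Tissue markers that moved between days 3 and 14 stood beside all of these changes. In this comparison 2.69% of all genes were called higher and 3.09% lower in sensory nerve+ rats. The shares in sensory nerve− rats were 8.89% and 14.6%. Skeletal muscle genes summed to 36.2 to 789 CPM at day 3 and to 367 to 45906 CPM at day 14, and 17 of 20 were called higher in sensory nerve+ rats and 11 of 19 in sensory nerve− rats. The 10 proliferation genes had medians of −1.04 and −2.18 at day 14 against day 3, with 0 and 10 called lower. Of the 10 genes of all leukocytes, 0 were called in either group, with medians of 0.43 and 1.07, so the medians of the T cell genes, 1.13 and 2.89, lay above those of leukocytes in general. Neutrophil genes had medians of 3.59 and 0.29, erythroid genes of 0.30 and 2.50, and osteoblast genes of −0.13 and 0.57. Oral epithelial genes, of which 7 and 8 of 14 were tested, had medians below 0 in both groups. Of 12 salivary gland genes only 2 and 1 were tested, too few for a median. The summed levels of epithelial and salivary gland genes were at most 67.3 and 59.4 CPM at day 14. How much of the lymphocyte values followed the share of these tissues was not tested.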

How the data were processed

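RNA-seq of healing tissue from 23 rats was analysed in 6 groups, with groups and replicate numbers from the sample labels. The authors aligned reads with HISAT to mRatBN7.2 and deposited an expected count per gene for 20022 genes in 2 tables with the same genes, 1 of them for the sensory nerve− rats of day 7. Per the labels, the processing notes also name Bowtie2, and the counting program is not given in the sources used here. Of the deposited expected counts 37.0% were exactly whole numbers, with no tolerance, and all were rounded. Totals ranged from 14854389 to 18742274 counts, and p-values reflect the spread between rats. For RAW264.7, a mouse macrophage line, 11 samples given LPS (100 ng/ml, 6 h), of which 5 also had CGRP (10 nM), the authors deposited a scaled signal per gene, which was summed over runs and given as values only.

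Rat counts were filtered by filterByExpr, scaled by TMM and entered into glmQLFTest, the quasi-likelihood test in edgeR 4.0.16 (R 4.3.3), each comparison on its own groups, two-sided, with Benjamini-Hochberg adjustment over all genes tested and a threshold of 0.05. Standard errors were derived from the F statistic. Likeness and correlations used log2 of CPM plus 0.5. The test script was tried on simulated counts. Figures were drawn with matplotlib 3.10.9, and tables were handled with pandas 2.3.3 and numpy 2.4.6 in Python 3.11.15.

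Alternatives were DESeq2 1.42.0, RLE size factors, library totals, no filter, a filter of 30 counts, unrounded counts, the replicate number as a block, all 23 rats in 1 fit, and each rat left out in turn. Counts and medians of 5 of the lists with each rat left out were added after the data had been seen.

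The members and the 20 lists of other genes were chosen with earlier results of these data known. Named genes were all members, the 3 genes with the smallest p of a list described, and the 5 genes most like each member group. Some genes that this rule names are not reported here. The lists were B cell, B cell precursor, plasma cell, immunoglobulin chain, T cell, cytotoxic and NK cell, B and T cell receptor signalling, lymphocyte homing and survival, germinal centre and lymph node, plasmacytoid dendritic cell, pan leukocyte, macrophage, neutrophil, erythroid, skeletal muscle, oral epithelium, salivary gland, osteoblast and proliferation genes. Of the immunoglobulin chain list, 0 of 16 genes were analysed here. Promoters are from RefSeq on GRCr8, and matches to them were by gene symbol. No libraries were near-duplicates in a chi-square comparison of counts.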

Additional observations from a re-analysis of the deposited data

Results flagged for a closer look

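Replicate 2 of the sensory nerve+ rats of day 14 stood apart from the other 3 for Cd79b, at 135.9 CPM against 12.5 to 32.9 CPM, and for Mzb1, at 38.8 CPM against 2.18 to 8.42 CPM. Its gap to the next rat took shares of 0.834 and 0.830 of the range of the group, above the critical value of Dixon's test for 4 samples. Of 40 groups of 4 rats and genes that were looked at, these 2 were singled out, and chance alone does so for about 1 in 20. The same rat had the highest Rag1, Igll1 and neutrophil genes of all rats of day 14. Without it, the log2 fold change at day 14 against day 3 was 1.28 for Cd79b (adjusted p = 0.135 from edgeR) and 3.89 for Mzb1 (adjusted p = 0.0145 from edgeR), against 2.31 and 5.36 with it.

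Pax5 gave a signal in the mouse macrophage line RAW264.7, which is outside the rat comparisons. The median deposited signal was 102.3 in 6 samples with LPS (87.0 to 152.5) and 102.5 in 5 samples with LPS and CGRP (59.1 to 116.5), where 1 read is worth about 1 unit. The other members, Jchain included, had at most 5.66 units in any sample of the line. The macrophage genes Csf1r and Cd68 had medians of 32802 and 45776 units with LPS. The source of the Pax5 signal was not tested.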

How the results depend on the processing

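The direction of every called member value held under all alternatives, and 2010 tests of single members stayed on their side of the threshold, 48 passed it only under the alternative and 12 lost it, while 97 values that were not called changed sign, 18, 7 and 11 of them for transection at days 3, 7 and 14, 1 over all days, 7 and 18 at day 7 against day 3 in sensory nerve+ and sensory nerve− rats, and 10, 6 and 19 in the interactions (day 7 against day 3, day 14 against day 7, day 14 against day 3). With DESeq2, members called rose from 0 to 1 (day 7 against day 3, in each nerve group), 5 (day 14 against day 7, sensory nerve+), 8 (day 14 against day 3, sensory nerve+) and 7 (day 14 against day 7, sensory nerve−), and from 3 to 7 at day 14 against day 3 in sensory nerve− rats. All 23 rats in 1 fit gave 1, 2, 2 and 7 for day 7 against day 3 and day 14 against day 3 in sensory nerve+ rats and day 14 against day 7 and day 14 against day 3 in sensory nerve− rats. Library totals gave 1, Cd8a, at day 7 against day 3 in sensory nerve− rats. Over the fits with 1 rat left out, members called ranged from 0 to 1 for day 14 against day 3 in sensory nerve+ rats (1, Mzb1, without day 14 replicate 2), from 0 to 1 for day 7 against day 3 in sensory nerve− rats (1, Cd8a, without day 7 replicate 4), from 0 to 6 for day 14 against day 7 (6 without day 14 replicate 2), and from 0 to 6 for day 14 against day 3, and were 0 in all other comparisons. RLE size factors, both filters and unrounded counts moved no count of members called by over 1.5 times. The cause of these differences was not tested. Scaling by library totals moved the median log2 fold change of all genes from 0.03 to −0.41 for transection at day 14, from −0.05 to −0.42 and from −0.01 to −0.40 for day 14 against day 3 and against day 7 in sensory nerve− rats, and from 0.00 to −0.16 for transection over all days. The interaction medians moved from 0.04 to −0.47, from 0.02 to −0.39 and from −0.01 to −0.12 (day 14 against day 3, day 14 against day 7, day 7 against day 3), and the other medians by less than 0.1.

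Counts of all genes called moved by over 1.5 times as well. In sensory nerve+ rats, 871 genes at day 14 against day 3 became 3408 with DESeq2, 2606 with all 23 rats in 1 fit, 547 with library totals and 0 with the block, 1002 at day 7 against day 3 became 2751 with DESeq2, 579 with library totals and 122 with the block, and 3 at day 14 against day 7 became 335, 13 and 0 in that order, and 2 with all rats. Among sensory nerve− rats, 3396 at day 14 against day 3 became 1184 with library totals, 1524 at day 7 against day 3 became 3241 with DESeq2, 2287 with all rats and 2 with the block, and 2 at day 14 against day 7 became 2011, 927, 21 and 0 (DESeq2, all rats, library totals, block). For transection, DESeq2 called 104 at day 14, 1 at day 7, 1 over all days, and 30, 2 and 7 in the interactions, where edgeR called 0. With 1 rat left out the counts ran from 0 to 3133, 254 to 1547 and 0 to 28 in the sensory nerve+ comparisons and from 1620 to 4346, 0 to 1359 and 0 to 814 in the sensory nerve− ones, in the same order, and were 0 for transection. Of the genes called, 406 of 871 were higher at day 14 against day 3 in sensory nerve+ rats, 358 of 547 with library totals, and 733 of 1002 and 507 of 579 at day 7 against day 3. In sensory nerve− rats 1284 of 3396 and 308 of 1184 were higher at day 14 against day 3, and 2 of 2 and 3 of 21 at day 14 against day 7.

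The replicate numbers name separate rats. With them as a replicate block, members called fell from 3 to 1, Cd3e (log2 fold change 3.26, adjusted p = 0.0462 from edgeR), at day 14 against day 3 in sensory nerve− rats and stayed 0 elsewhere. Same-numbered rats deviated from their group means with correlations between −0.375 and 0.437 over the comparisons, in no comparison was every pair above 0.1, and in none did every rat correlate best with its own number.

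With 3 or 4 rats per group, SEs of the members' log2 fold changes lay between 0.381 and 1.28 where a group was compared with another. In the fits of all 23 rats, SEs reached 0.335 for Cd8a over all days and 1.41 for Mzb1 in an interaction. Changes well above 1 SE also went uncalled. An example is Cd79a at day 14 against day 7 in sensory nerve+ rats (3.86, SE 1.03, edgeR adjusted p = 0.384). Mzb1 had as few as 1 count in a rat of day 3.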
